A study of Mus musculus with 12 samples.

Results

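The genes described here make, cut, restrain and cross-link the collagen-rich matrix around muscle fibres: the inhibitors Timp1, Timp2, Timp3 and Timp4, the metalloproteinases Mmp2, Mmp14 and Mmp23, the procollagen-processing protease Bmp1, and the lysyl oxidases Lox and Loxl2. They were chosen by gene symbol, and every probe that the platform annotation gives to 1 of the 10 symbols was taken from the deposited non-normalized intensities. The annotation supplied named 17 probes for 9 of the symbols. Loxl2 had no probe there and was not analysed here. All 9 genes with a probe passed the detection filter, on 16 of the 17 probes, and were tested among 10575 genes in all.

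RNA came from the lower abdominal muscle of male FVB/N mice aged 1 month and was read on 12 Illumina 1-colour bead arrays, 4 for each of 3 genotypes. AromhumH and AromhumL are humanized aromatase transgenic mice, in which the human enzyme that turns androgens into oestrogens is expressed at the higher level in AromhumH and at the lower level in AromhumL. WT mice, without the transgene, were the controls, and no group had any other treatment in the labels. The labels name neither the promoter that drives the transgene nor the cells that express it. They also do not call the replicates separate animals, so a p-value here reflects only how far these samples vary, and some of that variation may be technical.

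Matrix metalloproteinases are secreted or membrane-bound zinc proteases that cleave collagens, laminins and other matrix proteins, and TIMPs bind their active sites and block them. MMP14, a membrane protease, activates the gelatinase MMP2, a step in which TIMP2 serves as an adaptor. BMP1 removes the C-terminal propeptide of fibrillar procollagens and also cleaves the propeptide of lysyl oxidase, and lysyl oxidases then oxidise lysines so that collagen and elastin fibres can be cross-linked. In skeletal muscle these genes are known mainly from fibroblasts, endothelium and connective tissue sheaths, while Timp4 is also known for its expression in striated muscle.

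Values below are background-corrected, quantile-normalized log2 intensities. A gene is represented by its brightest detected probe, and a change is called at an adjusted p under 0.05 from limma, with Benjamini-Hochberg adjustment over all 10575 genes. A level belongs to its own probe, so levels are compared between arrays and not between genes. In whole muscle, a change in the number of cells of a type and a change in RNA per cell cannot be told apart.

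The samples were measured to a similar depth, with 17198 to 18867 of 45281 probes detected per array and correlations of 0.976 to 0.988 between arrays of a group. Of 7 skeletal muscle markers 7 passed the detection filter, and their mean was 14.40 to 14.49 in AromhumH, 14.37 to 14.42 in AromhumL and 14.42 to 14.49 in WT. Before normalization, AromhumH arrays had mean intensities of 296 to 373, AromhumL arrays of 222 to 274 and WT arrays of 267 to 362, so that no AromhumL array was as bright as any AromhumH array.

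Timp1 and Mmp23 were the members that rose in AromhumH against WT, and Timp4 is shown with them as an inhibitor that did not rise. The sequences run from 250 bases before to 50 bases after the transcription start, 5′ to 3′ on the strand of the gene, and are taken from RefSeq on GRCm38.p6. Timp1 lies at chrX:20869916-20870215 on the plus strand, Mmp23 at chr4:155653241-155653540 on the minus strand, and Timp4 at chr6:115252156-115252455 on the minus strand. Capitals mark TGAGTAA, a variant of the AP-1 site, and the GC box GGGCGG, each searched on both strands.
Timp1: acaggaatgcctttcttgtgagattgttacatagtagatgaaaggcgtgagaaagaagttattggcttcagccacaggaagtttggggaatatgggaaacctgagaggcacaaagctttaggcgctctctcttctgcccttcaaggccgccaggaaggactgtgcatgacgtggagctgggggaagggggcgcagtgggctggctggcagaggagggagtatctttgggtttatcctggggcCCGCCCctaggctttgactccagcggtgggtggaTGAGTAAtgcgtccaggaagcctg
Mmp23: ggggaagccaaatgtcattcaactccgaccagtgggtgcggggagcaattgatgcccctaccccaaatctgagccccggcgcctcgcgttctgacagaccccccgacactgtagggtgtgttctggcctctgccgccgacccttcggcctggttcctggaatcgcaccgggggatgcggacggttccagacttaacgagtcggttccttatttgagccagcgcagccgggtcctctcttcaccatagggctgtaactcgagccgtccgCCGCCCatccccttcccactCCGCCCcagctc
Timp4: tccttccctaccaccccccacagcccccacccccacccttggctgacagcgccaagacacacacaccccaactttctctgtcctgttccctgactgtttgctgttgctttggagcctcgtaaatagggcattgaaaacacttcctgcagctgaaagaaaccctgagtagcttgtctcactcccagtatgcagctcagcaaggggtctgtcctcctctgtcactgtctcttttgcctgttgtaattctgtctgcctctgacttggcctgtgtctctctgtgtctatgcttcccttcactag
The Timp1 window held TGAGTAA at bases 27 to 33 after the start, a sequence present in 2.68% of the 32851 windows of the RefSeq table, and a reverse-strand GC box at bases -8 to -3. The Mmp23 window shown held 2 reverse-strand GC boxes, a motif present in 35.7% of all windows, and the Timp4 window held neither motif. Of the 10 symbols, 6 had at least 1 window in the table, and Mmp23 had a window for each of 2 starts, of which the one not shown held 0 GC boxes. GC boxes also lay in the windows of Timp2, Timp3 and Mmp14. The AP-1 consensus TGANTCA (7.81% of all windows), the TATA box TATAAA (13.6%), the short oestrogen receptor motif GGTCA (40.5%), and the palindromic oestrogen (0.07%) and androgen (0.00913%) response elements were in none of the 7 member windows. These matches describe letters in the windows shown.

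Timp1, a secreted inhibitor of most metalloproteinases that is also known as an early gene of tissue repair, showed the largest difference among the members. Its log2 values were 9.14, 9.98, 8.39 and 9.40 in AromhumH replicates 1 to 4, against 6.66, 7.49, 7.10 and 7.39 in WT replicates 1 to 4. AromhumL arrays read 6.91, 8.30, 7.98 and 6.76. Every AromhumH array was above every AromhumL and every WT array, while AromhumL overlapped WT and reached above it in replicates 2 and 3. Timp1 was 4.19-fold higher in AromhumH than in WT (95% interval 2.497 to 7.03, log2 change 2.07, SE 0.35, limma adjusted p = 0.0145) and 3.34-fold higher in AromhumH than in AromhumL (1.99 to 5.60, log2 change 1.74, limma adjusted p = 0.0174). AromhumL and WT differed by 0.33 on the log2 scale (95% interval -0.42 to 1.07, adjusted p = 0.792), which did not pass the test. The other Timp1 probe, also detected on all 12 arrays, gave log2 changes of 2.05 against WT (adjusted p = 0.0176) and 1.72 against AromhumL (0.0196).

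The call of Timp1 against WT was lost without WT replicate 1 (adjusted p = 0.0539), AromhumH replicate 2 (0.0607) or AromhumH replicate 4 (0.0513), and when no detection filter was used (0.0712). The call against AromhumL was lost without AromhumH replicate 2 (0.0512), AromhumH replicate 4 (0.0602), AromhumL replicate 1 (0.0702) or AromhumL replicate 4 (0.0534), without the filter (0.0598), and with array brightness as a covariate (0.567). The size of the change stayed between 1.38 and 2.35 against WT, and between 1.18 and 2.17 against AromhumL, over the alternatives run. Fewer of all genes passed too in the fits that lost a call. Against WT, 125 passed in the main fit, 22 without WT replicate 1, 2 without AromhumH replicate 2 and 20 without AromhumH replicate 4. Without the filter, 36 of 19057 passed. Against AromhumL, 638 passed in the main fit, and 64 to 145 in the fits without an array that lost the call. There, 210 passed without the filter and 0 with the covariate.

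**Figure D1:**
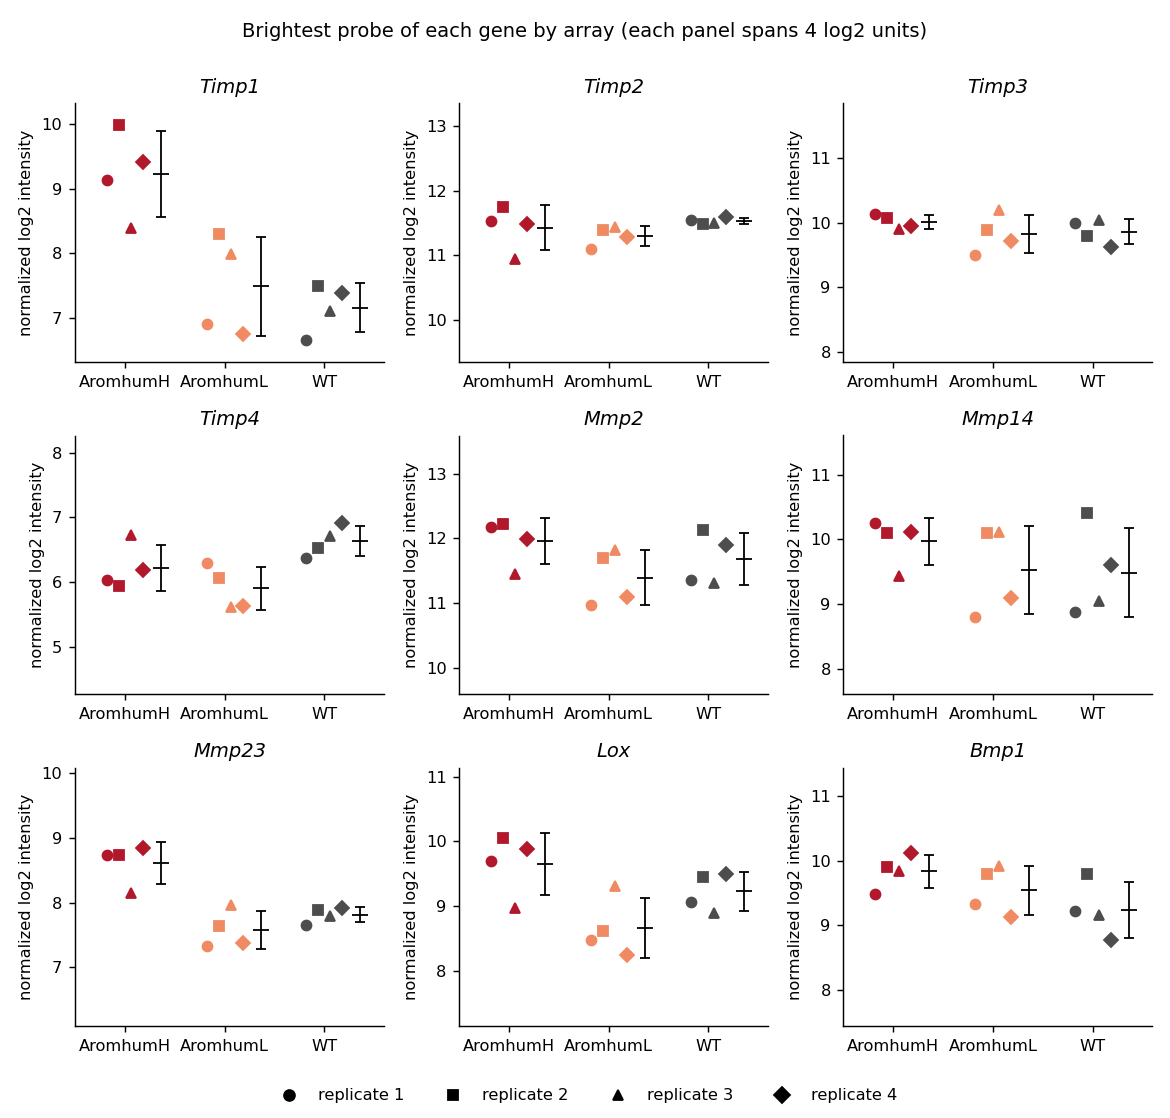
Log2 intensity (vertical axis) of the 9 measured genes on each of the 12 arrays, with AromhumH left, AromhumL in the middle and WT right in each panel. Marker shapes give the replicate, and bars give the group mean ± SD (n = 4). Timp1 and Mmp23 show the AromhumH arrays above all arrays of both other groups, and Timp2 shows groups that lie close together.

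No other inhibitor passed the test in any of the 3 comparisons. Timp2, which blocks metalloproteinases and also takes part in the activation of MMP2, read 11.53, 11.75, 10.95 and 11.49 in AromhumH, against 11.54, 11.48, 11.50 and 11.59 in WT. AromhumL arrays read 11.09, 11.39, 11.43 and 11.29, each below all 4 WT arrays. The log2 differences of Timp2 were -0.10 for AromhumH minus WT (95% interval -0.43 to 0.23), -0.23 for AromhumL minus WT (-0.56 to 0.10) and 0.13 for AromhumH minus AromhumL (-0.20 to 0.46), with adjusted p from 0.650 to 0.808.

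Timp3, the TIMP that is bound to the matrix, averaged 10.02 ± 0.11 in AromhumH and 9.82 ± 0.29 in AromhumL, against 9.86 ± 0.19 in WT (mean ± SD, n = 4 each). Its groups overlapped in all 3 comparisons, and the intervals of the log2 differences ran from -0.17 to 0.48 for AromhumH minus WT and from -0.36 to 0.29 for AromhumL minus WT. The 2 dimmer Timp3 probes, detected on 11 and 6 arrays, gave AromhumH minus WT differences of -0.13 and -0.02.

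Timp4, the TIMP also known from striated muscle, read 6.03, 5.93, 6.72 and 6.18 in AromhumH and 6.29, 6.07, 5.61 and 5.62 in AromhumL, against 6.37, 6.53, 6.71 and 6.92 in WT. All AromhumL arrays lay below all WT arrays, while AromhumH overlapped both. The log2 difference was -0.73 for AromhumL minus WT (95% interval -1.15 to -0.31, unadjusted p = 0.00197, adjusted p = 0.570) and -0.41 for AromhumH minus WT (-0.83 to 0.01, adjusted p = 0.306), so neither passed over all genes. AromhumH minus AromhumL was 0.32 (adjusted p = 0.334).

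Whether Timp1 changed by more than its relatives was tested on the log2 difference between Timp1 and each of them within every array, with 9 two-sided exact permutation tests. Timp1 minus Timp2 was -2.39, -1.77, -2.56 and -2.08 in AromhumH, against -4.89, -3.99, -4.39 and -4.20 in WT, a shift of 2.17 with no overlap. Timp1 minus Timp3 shifted by 1.91 and Timp1 minus Timp4 by 2.48 between the same groups, also with no overlap. Each of these 3 tests gave the smallest p that 4 arrays against 4 allow, 0.0286, and an adjusted p of 0.0514, so none passed after adjustment. With this floor and 9 tests, no single shift could pass on its own, whatever its size, so the adjusted p does not decide the question. For AromhumH against AromhumL the shifts were 1.61 (Timp2), 1.55 (Timp3) and 1.42 (Timp4), with exact permutation p of 0.0286, 0.0286 and 0.0857 and adjusted p of 0.0514, 0.0514 and 0.110. For AromhumL against WT they were 0.56, 0.37 and 1.06, with adjusted exact permutation p of 0.257, 0.371 and 0.0857.

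**Figure D2:**
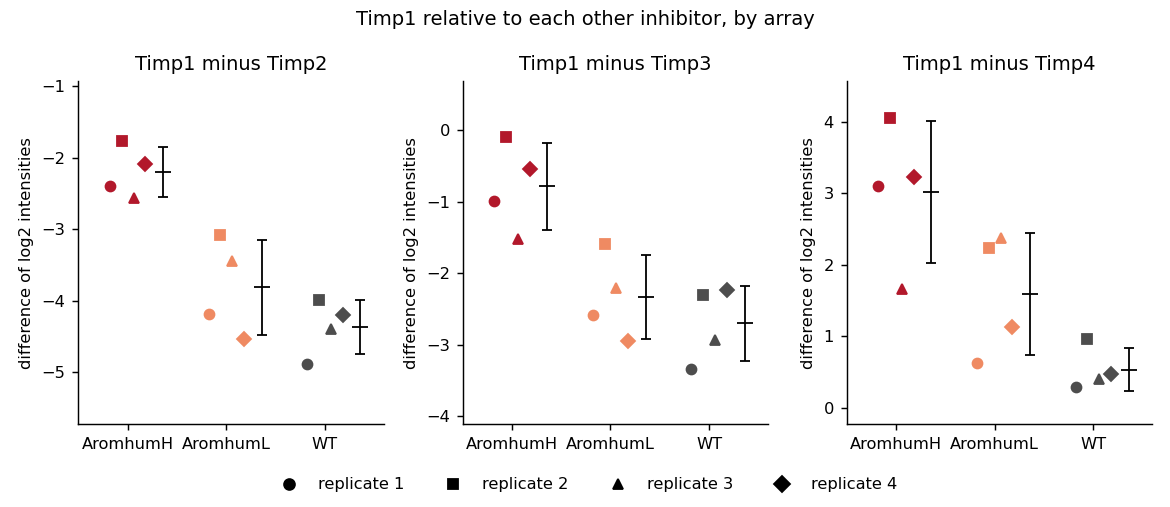
Log2 Timp1 minus log2 Timp2, Timp3 or Timp4 (vertical axis) on each array, with AromhumH left, AromhumL in the middle and WT right. Only shifts between groups can be read, since each gene has its own probe. AromhumH lies above WT in all 3 panels, by 2.17, 1.91 and 2.48 on average.

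Among the proteases, Mmp23 rose in AromhumH and the collagenolytic pair Mmp2 and Mmp14 did not pass the test. Mmp23, a small membrane-anchored metalloproteinase, read 8.73, 8.75, 8.14 and 8.85 in AromhumH, against 7.65, 7.89, 7.80 and 7.92 in WT. AromhumL arrays read 7.33, 7.64, 7.96 and 7.38. Every AromhumH array, replicate 3 included, was above every array of AromhumL and WT, and the other two groups overlapped. The level was 1.75-fold higher in AromhumH than in WT (95% interval 1.35 to 2.25, log2 change 0.80, SE 0.17, limma adjusted p = 0.0353). It was 2.06-fold higher in AromhumH than in AromhumL (1.60 to 2.66, log2 change 1.04, limma adjusted p = 0.00889). AromhumL minus WT was -0.24 (95% interval -0.61 to 0.13, adjusted p = 0.685).

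The call of Mmp23 against WT was lost without WT replicate 1 (adjusted p = 0.117), 2 (0.0674), 3 (0.0633) or 4 (0.0673), and without AromhumH replicate 1 (0.0896), 2 (0.109) or 4 (0.116). It was also lost with equal medians in place of quantiles (0.124), the authors' processed values (0.0544), no detection filter (0.0795), the replicate block (0.0664) and the brightness covariate (0.0585). The call of Mmp23 against AromhumL held in all 12 fits that left out an array and was lost with the brightness covariate (0.420). Over all genes, 2 to 120 passed against WT in the fits that lost the Mmp23 call by leaving out an array, beside 125 in the main fit.

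Mmp2, the gelatinase that cleaves denatured collagen and type IV collagen, read 12.17, 12.22, 11.45 and 11.998 in AromhumH and 10.97, 11.69, 11.82 and 11.09 in AromhumL, against 11.36, 12.13, 11.32 and 11.89 in WT. The groups overlapped, and the widest difference was AromhumH minus AromhumL, 0.57 (95% interval 0.06 to 1.07, adjusted p = 0.151). AromhumH minus WT was 0.28 (-0.22 to 0.78) and AromhumL minus WT was -0.28 (-0.79 to 0.22).

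Mmp14, the membrane protease that activates MMP2, averaged 9.97 ± 0.36 in AromhumH and 9.53 ± 0.68 in AromhumL, against 9.49 ± 0.69 in WT (mean ± SD, n = 4 each). WT arrays alone ran from 8.88 to 10.41, a spread wider than any difference of group means. AromhumH minus WT was 0.49 (95% interval -0.23 to 1.20, adjusted p = 0.499). A dimmer Mmp14 probe was detected on 2 AromhumH arrays, 0 AromhumL arrays and 2 WT arrays, and gave an AromhumH minus WT difference of 0.14.

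Bmp1 read 9.49, 9.90, 9.84 and 10.11 in AromhumH and 9.33, 9.79, 9.92 and 9.12 in AromhumL, against 9.23, 9.80, 9.16 and 8.77 in WT. The AromhumH and WT ranges overlapped through WT replicate 2. The log2 difference of AromhumH minus WT was 0.60 (SE 0.22, unadjusted p = 0.0156, adjusted p = 0.183) and did not pass. The 5 Bmp1 probes were not alike: the 3 others that passed the filter gave 0.24, 0.16 and 0.13 for the same comparison, and the remaining probe was detected on 0 arrays.

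**Figure D3:**
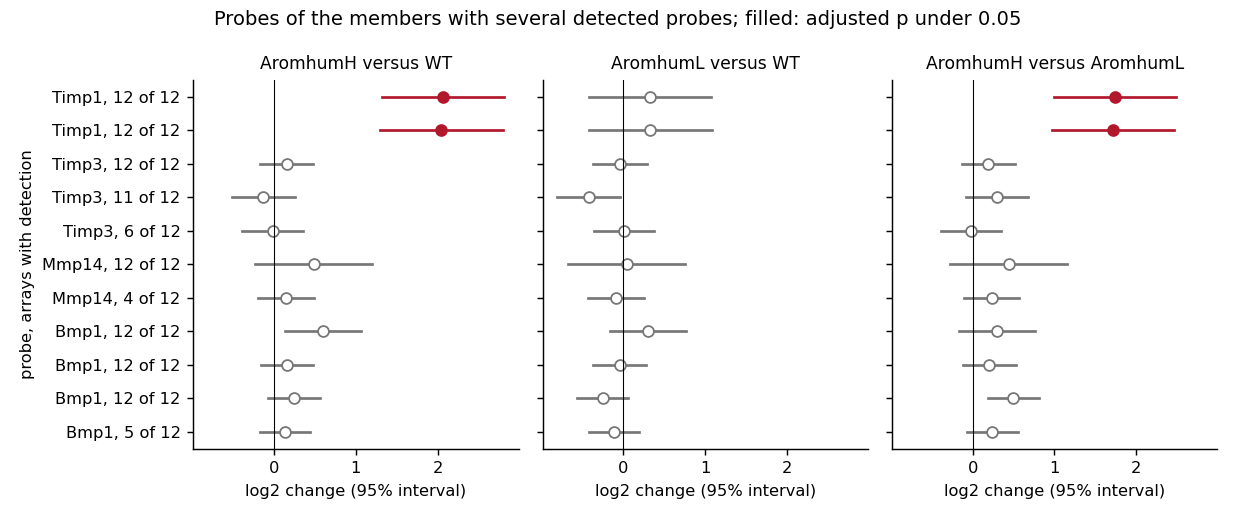
Log2 change (horizontal axis) with 95% interval of the detected probes of the 4 genes with several, each labelled with the arrays that detected it, with AromhumH minus WT, AromhumL minus WT and AromhumH minus AromhumL in separate panels. The 2 Timp1 probes lie together at 2.05 and 2.07 for AromhumH minus WT, while the 4 Bmp1 probes spread from 0.13 to 0.60.

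Lox, which starts collagen and elastin cross-linking, differed between the transgenic lines. It read 9.69, 10.05, 8.97 and 9.89 in AromhumH, against 8.47, 8.61, 9.32 and 8.24 in AromhumL. WT arrays read 9.06, 9.45, 8.90 and 9.499, with a mean between those of the transgenic lines. AromhumH and AromhumL overlapped, as AromhumH replicate 3 was below AromhumL replicate 3. Lox was 1.99-fold higher in AromhumH than in AromhumL (95% interval 1.38 to 2.87, log2 change 0.99, SE 0.25, limma adjusted p = 0.0325). AromhumH minus WT was 0.42 (adjusted p = 0.419) and AromhumL minus WT was -0.57 (unadjusted p = 0.0367, adjusted p = 0.592), and neither passed.

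The Lox call was lost without AromhumH replicate 1 (adjusted p = 0.0788), 2 (0.0928) or 4 (0.0990) and without AromhumL replicate 1 (0.0974), 2 (0.0666) or 4 (0.0879). It was also lost with the authors' processed values (0.0662), no detection filter (0.0893), the replicate block (0.0508) and the brightness covariate (0.580). Over all genes, 64 to 359 passed in the fits that lost the Lox call by leaving out an array, beside 638 in the main fit.

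In AromhumH against WT, 2 of the 9 genes rose (Timp1 and Mmp23) and 0 fell, where 1.18% of all genes passed in either direction. The same 2 genes were higher on every AromhumH array than on every WT array, a separation seen in 5.34% of all genes. The median log2 change of the 9 genes was 0.42, beside 0.01 over all genes, and 7 of the 9 values were above 0. In AromhumH against AromhumL, 3 of 9 rose (Timp1, Mmp23 and Lox) and 0 fell, where 6.03% of all genes passed. Of these, Timp1 and Mmp23 were higher on every AromhumH array, as were 7.73% of all genes. All 9 values were above 0, with a median of 0.44, beside -0.00285 over all genes. These 2 comparisons use the same AromhumH arrays.

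In AromhumL against WT, 0 of 9 genes passed limma's test, where 0% of all genes passed. Timp4 and Lox, 2 of the 9, had an unadjusted p under 0.05, as did 885 of all 10575 genes, and Timp2 and Timp4 were lower on every AromhumL array than on every WT array, against 1.68% of all genes. The median log2 change was -0.23, beside 0.01 over all genes, and 3 of the 9 values were above 0.

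**Figure D4:**
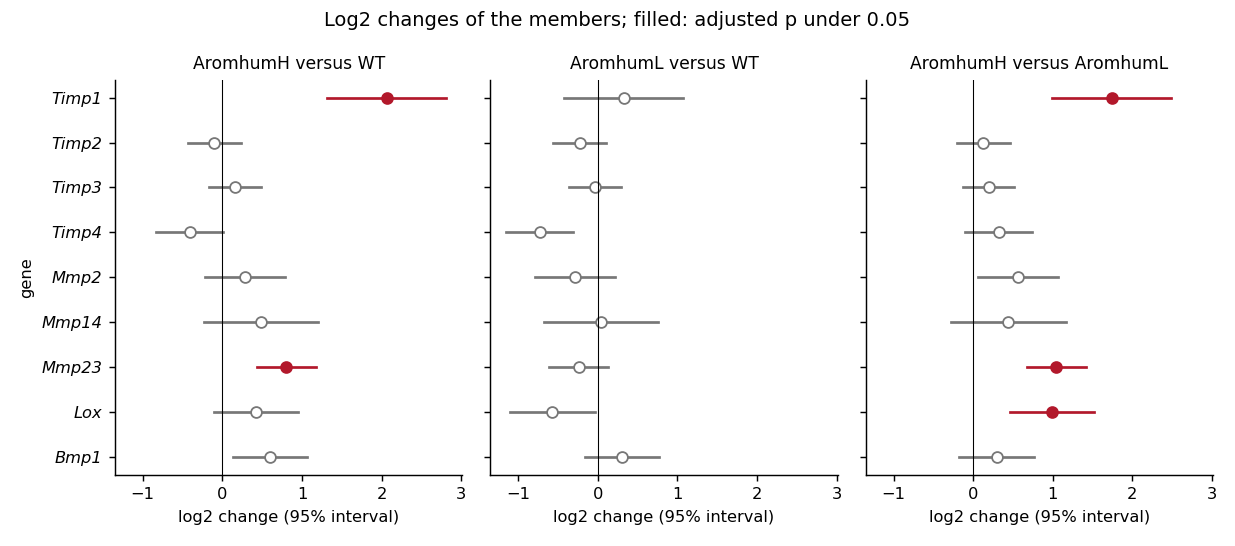
Log2 change with 95% interval (horizontal axis) of each measured gene for AromhumH minus WT, AromhumL minus WT and AromhumH minus AromhumL. Filled red points passed an adjusted p of 0.05. Timp1 and Mmp23 passed in both comparisons that include AromhumH, Lox in AromhumH minus AromhumL, and no gene in AromhumL minus WT.

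A wider list of 60 other matrix proteases, inhibitors and cross-linking enzymes had 37 genes that could be tested. In AromhumH against WT, 1 of the 37 rose and 0 fell, where 1.18% of all genes passed. This gene, Loxl1, a lysyl oxidase relative needed for elastic fibres, averaged 12.12 ± 0.32 in AromhumH and 11.31 ± 0.09 in WT (SD, n = 4 each). Its log2 change was 0.82 (SE 0.18, limma adjusted p = 0.0408), and every AromhumH array was higher, as for 5.34% of all genes. The median over the 37 genes was 0.23, with 27 above 0. In AromhumL against WT, 0 of 37 passed limma's test and 2 had an unadjusted p under 0.05, a share below that of all genes (885 of 10575). The smallest p belonged to Loxl4, another lysyl oxidase relative, at -0.61 (adjusted p = 0.589), and Adamts12, a secreted metalloproteinase, at -0.50 (adjusted p = 0.592).

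In AromhumH against AromhumL, 4 of the 37 rose and 0 fell, with a median of 0.38 and 26 above 0. Over all genes 6.03% passed in either direction and 4.02% rose. Htra1, a secreted serine protease, was 1.01 higher on the log2 scale (limma adjusted p = 0.0278). Adamts9, a metalloproteinase that cleaves versican, was 0.71 higher (0.0362), and Fap, a serine protease of activated fibroblasts, was 0.70 higher (0.0469). Both were higher on every AromhumH array, as were 7.73% of all genes. Loxl1 was 0.70 higher (0.0366), with overlap. The call of Loxl1 against WT was lost without WT replicate 1 (adjusted p = 0.117), 2 (0.0741), 3 (0.0710) or 4 (0.0689), AromhumH replicate 1 (0.105), 2 (0.121) or 4 (0.116), or AromhumL replicate 4 (0.0532). All 4 calls against AromhumL were lost without AromhumH replicate 1, 2 or 4 or AromhumL replicate 1 or 4 (0.0575 to 0.129), those of Adamts9 (0.0694) and Fap (0.0714) also without AromhumL replicate 2, and that of Fap without WT replicate 2 (0.0538).

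Mesothelial markers and epithelial keratins were also higher in AromhumH. Mesothelial markers (5 of 7 measured, without Wt1 and Muc16) averaged 8.22, 8.72, 7.88 and 8.06 in AromhumH and 6.28, 7.40, 6.94 and 7.16 in AromhumL, against 6.77, 6.94, 6.32 and 7.13 in WT. Their summed level on the linear scale was 1610 to 2976 in AromhumH, 533 to 1121 in AromhumL and 496 to 957 in WT. Of the 5, Msln (log2 change 1.92), Upk1b (1.83), Upk3b (0.97) and Krt19 (1.06) rose in AromhumH against WT, and Lrrn4 did not pass (1.38, adjusted p = 0.0853). Epithelial keratins (3 of 5 listed genes measured, without Krt5 and Epcam) averaged 7.33 to 8.33 in AromhumH, 5.56 to 7.50 in AromhumL and 5.63 to 6.45 in WT, and Krt8 (2.13) and Krt18 (1.44) rose against WT while Krt14 (1.65, adjusted p = 0.110) did not pass. In AromhumH against AromhumL, 4 of the 5 mesothelial genes and 3 of the 3 keratins rose. Of all genes, 0.879% rose in AromhumH against WT and 4.02% against AromhumL. Of the macrophage, adipocyte, endothelial, smooth muscle and neutrophil markers, 0 passed limma's test in AromhumH against WT. Their median log2 changes were 0.39, -1.05, -0.01, 0.11 and -0.39, the last from 1 gene. Macrophage means were 7.80, 8.46, 8.69 and 7.90 in AromhumL replicates 1 to 4, where Timp1 was also higher in replicates 2 and 3. AromhumH replicate 4, next to highest in Timp1, had the lowest macrophage mean of its group, in a narrow range of 8.20 to 8.39. In WT, replicate 2 was highest and replicate 1 lowest in both Timp1 and the macrophage mean.

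Fibroblast markers, all 8 measured, averaged 10.002 to 10.41 in AromhumH, 9.60 to 10.10 in AromhumL and 9.72 to 9.89 in WT. Every AromhumH mean was thus above every WT mean. In AromhumH against WT, 0 of 8 passed limma's test, while the median log2 change was 0.40 and 6 of 8 were above 0. Of the 8, 4 had an unadjusted p under 0.05, as did 1767 of all 10575 genes. On every AromhumH array 2 of the 8 were higher than on every WT array, as were 5.34% of all genes. In AromhumH against AromhumL, 1 of the 8 rose, Thy1 (log2 change 1.28, adjusted p = 0.0247), where 4.02% of all genes rose. The fibroblast mean, like Timp1, was highest in replicate 2 and lowest in replicate 3 of AromhumH, and lowest in replicate 1 of WT. In AromhumL and in WT the fibroblast mean was highest in replicate 3, while Timp1 was highest in replicate 2. In AromhumL the fibroblast mean was lowest in replicate 1, while Timp1 was lowest in replicate 4. AromhumH replicate 2 had both the highest Timp1 and the highest mesothelial mean of its group, and AromhumH replicate 3 had the lowest of both. AromhumL replicate 2 led its group in both. The order was not shared throughout: AromhumL replicate 4 had the lowest Timp1 and the next to highest mesothelial mean of its group, AromhumH replicate 4 was next to highest in Timp1 and next to lowest in the mesothelial mean, and in WT Timp1 was highest in replicate 2 and the mesothelial mean in replicate 4.

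Tendon markers (4 of 6 measured, without Tnmd and Thbs4) averaged 6.54 to 9.17 in AromhumH and 6.43 to 7.77 in AromhumL, against 7.09 to 8.81 in WT, so that all groups overlapped. Their summed level on the linear scale was 588 to 2876 in AromhumH, 369 to 932 in AromhumL and 541 to 2294 in WT. In AromhumH against AromhumL, where Lox was called, 4 of the 4 log2 changes were above 0 (median 0.99) and 1 rose, the transcription factor gene Scx (0.80, limma adjusted p = 0.0387). Of all genes, 4.02% rose there. In AromhumL against WT the median was -1.41 and 0 passed limma's test, with 3 at an unadjusted p under 0.05: Kera (-1.27), Comp (-1.91) and Fmod (-1.54). Of all 10575 genes, 885 had an unadjusted p under 0.05 in this comparison and 0 passed. AromhumH replicate 3 had the lowest Lox and the lowest tendon mean of its group. AromhumH replicate 4 had the highest tendon mean and the next to highest Lox, and WT replicates 2 and 4 led WT in both. The order was not shared throughout. AromhumL replicate 3 had the highest Lox and the lowest tendon mean of its group. AromhumH replicate 2 had the highest Lox of its group and a tendon mean of 7.32. In WT, Lox was lowest in replicate 3 and the tendon mean in replicate 1. What part these cell types had in the levels of Timp1, Mmp23 or Lox was not tested. With array brightness as a covariate, 0 of all 10575 genes passed in AromhumH against AromhumL, beside 638 without it. As no AromhumL array was as bright as any AromhumH array, this fit cannot tell brightness from genotype. The part of brightness in these differences was not otherwise tested.

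**Figure D5:**
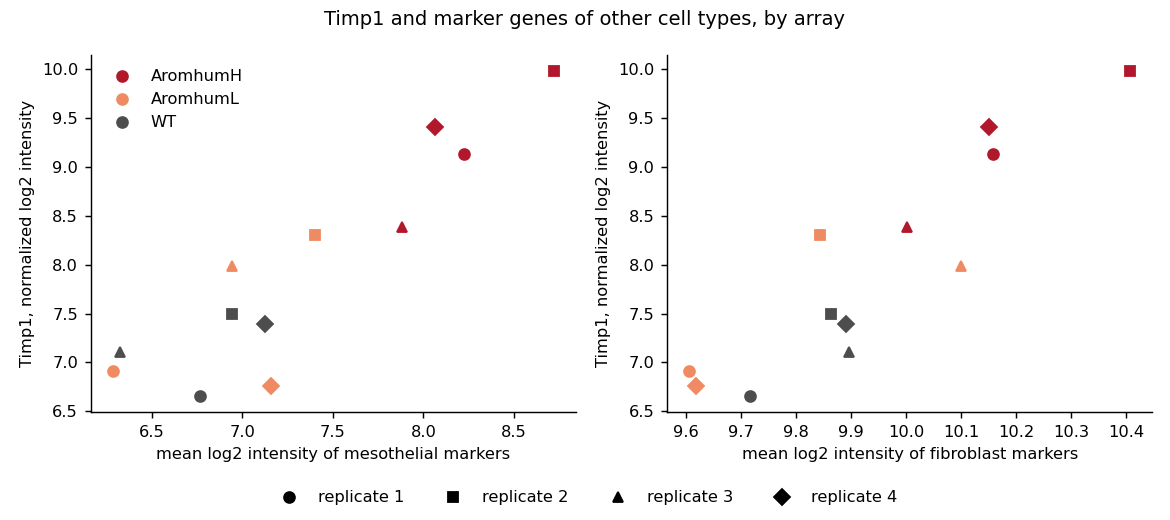
Log2 Timp1 (vertical axis) against the mean log2 level of mesothelial (left) or fibroblast markers (right, horizontal axes) on the 12 arrays, coloured by group, with marker shapes for replicates. The AromhumH arrays lie at Timp1 values of 8.39 to 9.98 and mesothelial means of 7.88 to 8.72, above all other arrays on both measures, while AromhumL replicate 3 has a fibroblast mean of 10.10, within the AromhumH range.

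The genes with the pattern most like each called member were found by the root mean square difference of log2 values over the 12 arrays, after each gene was centred on its own mean. For Timp1 they were Spon2, a secreted matrix protein (0.359), the epithelial keratin Krt8 (0.365) and Car12, a membrane carbonic anhydrase (0.406), where Timp1 itself varied by 1.06 around its mean. For Mmp23 they were the DNA replication licensing factor Cdt1 (0.121), the fibrillar collagen gene Col5a1 (0.121) and Igsf9 (0.141), where Mmp23 itself varied by 0.499. For Lox they were Col14a1, a collagen associated with fibrils (0.172), Mtmr11 (0.187) and Lhfp (0.230), where Lox itself varied by 0.546. Each of these genes, collagen or not, also passed in AromhumH against AromhumL, with limma adjusted p from 0.00999 (Krt8) to 0.0497 (Car12). Col5a1 differed there by 0.86 (0.0258) and Col14a1 by 0.91 (0.0293). The genes were picked for their likeness to members called in that comparison, so these p-values are no separate evidence.

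Within the groups, several members shared their highest or lowest arrays. AromhumH replicate 3 was the lowest array of its group for 7 of the 9 genes, Bmp1 and Timp4 being the exceptions, while it was the lowest for 27.8% of all genes. AromhumL replicate 3 was the highest of its group for 7 of 9, against 30.9% of all genes, and AromhumL replicate 2 was among the top 2 for 9 of 9. The share of all genes among the top 2 was not counted. Timp4 ran the other way in the transgenic groups, with its highest values in AromhumH replicate 3 and AromhumL replicate 1 and its lowest in AromhumH replicate 2 and AromhumL replicate 3. In WT, replicates 2 and 4 were each the highest array for 4 of the 9 genes, against 24.1% and 22.4% of all genes. They were among the top 2 for 6 and 7 of the 9. Replicate 1 was the lowest for 4, against 25.5% of all genes, and Timp4 was lowest there with Timp1, Mmp14 and Mmp23.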

How the data were processed

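Per the labels' protocols, RNA was extracted with Trizol, cleaned on a column with DNase digestion, checked on a Bioanalyser and labelled with biotin. The deposited table, per the file headers, gives a linear intensity for each of 45281 probes per array, not normalized between arrays, with a detection p-value beside it. The authors also deposited a processed table, on a log2 scale as judged from its values, with no stated transformation or offset. Chip position and scanner software were not given in the sources used here, and slide effects were therefore not tested.

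The platform annotation gave 34885 probes 1 symbol each, 18 probes several symbols and 10378 probes none. Of the 1-symbol probes, 34807 matched a RefSeq gene number, and 0 symbols were updated. Intensities were corrected and quantile-normalized with neqc of limma 3.58.1 in R 4.3.3 (offset 16). Probes with a detection p-value below 0.05 on at least 4 of 12 arrays were kept (19004), and the brightest named probe on average stood for its gene. The lmFit and eBayes functions estimated the 3 group means from all 12 arrays together (9 residual and 6.53 prior degrees of freedom), adjusted over 10575 genes by Benjamini-Hochberg. Folds are antilogs of log2 differences, and intervals cover 95%. Log2 changes had a median standard error of 0.16, which the number of arrays limits. The fit was tested on simulated data. No 2 arrays held identical values. Alternatives were no background correction, equal medians in place of quantiles, the processed table, no detection filter, every detected probe, the replicate number as a block, trended and robust variance, array brightness as a covariate, and each array left out in turn.

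All members are named. Of the wider list, genes past the threshold are named, or the 2 with the smallest p where none passed. The members, lists and tests were chosen with earlier results of these data known.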

Additional observations from a re-analysis of the deposited data

Results flagged for a closer look

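Timp1, Mmp23 and Lox differed between the transgenic lines in their change from WT, tested by the AromhumH against AromhumL contrast of limma. AromhumH minus AromhumL was 1.74 for Timp1 (adjusted p = 0.0174), 1.04 for Mmp23 (0.00889) and 0.99 for Lox (0.0325), on the log2 scale.

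Mmp23 had a single array apart from its group. It read 8.14 in AromhumH replicate 3, while the other AromhumH arrays read 8.73 to 8.85. This was 1 of 27 sets of 4 arrays examined, and chance alone sets apart about 1 in 20, so the number found is not above that rate. The sets share arrays and are not independent. AromhumH replicate 3 was the lowest of its group for 7 of the 9 genes.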

How the results depend on the processing

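Over the 20 alternatives run, the 180 log2 changes of the members in AromhumH against WT kept direction and side of the threshold 163 times, with 16 lost calls and 1 change of sign. For AromhumL against WT 170 of 180 were kept and 10 changed sign. For AromhumH against AromhumL 160 were kept, 17 calls were lost and 3 gained. The count of changed members in AromhumH against WT, 2, was 1 with equal medians, the authors' processed values, the replicate block or the brightness covariate, 0 without a detection filter, and 0 to 2 when an array was left out. In AromhumL against WT it was 0 throughout. In AromhumH against AromhumL the count of 3 became 6 with equal medians, 1 without the filter, 0 with the brightness covariate, and 1 to 3 with an array left out. The number of all genes passing also moved with an array left out. It ran from 2 to 316 in AromhumH against WT and from 64 to 1060 in AromhumH against AromhumL. Without the filter more genes are tested, and the cause of the other changes was not tested.

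With equal medians, the median of all genes stood at 0.35 for AromhumH minus AromhumL and at -0.26 for AromhumL minus WT, and 2566 genes rose and 21 fell in AromhumH against AromhumL, beside 425 and 213 with quantiles. The 3 added calls were Timp4 (0.69, or 0.34 relative to that median), Mmp2 (0.96 and 0.61) and Bmp1 (0.73 and 0.38). In AromhumH against WT 46 genes rose and 4 fell, beside 93 and 32.

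Alternatives for the wider list were chosen after seeing the data. Its count of 1 against WT was 0 with equal medians, processed values, replicate block or covariate, and 0 to 4 with an array left out (4 without AromhumH replicate 3). Its count of 4 against AromhumL was 19 with equal medians, where 2587 of all 10575 genes passed. The count was 0 with processed values or covariate, and 0 to 9 with an array left out (9 without AromhumH replicate 3). Without a detection filter all 5 calls of the wider list were lost (adjusted p 0.0772 to 0.0993). Against AromhumL the replicate block also ended the calls of Loxl1 (0.0542) and Fap (0.0548), and omitting background correction that of Fap (0.0517).

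Values that changed sign never passed the test. Timp2 in AromhumH against WT ran from -0.207 to 0.0611 with an array left out. In AromhumL against WT, Timp3 was 0.0612 with the covariate and ran from -0.16 to 0.0691 with an array left out, Mmp14 was -0.29 with equal medians and ran from -0.16 to 0.35, and Bmp1 was -0.0156 with equal medians. With equal medians, Timp1 minus Timp3 shifted by 1.53 in AromhumH against AromhumL (exact p = 0.0571). With an array left out, exact tests of 3 against 4 arrays cannot reach the same smallest p, and the shifts of Timp1 in AromhumH against AromhumL ran from 1.37 to 1.85 beside Timp2, 1.32 to 1.79 beside Timp3 and 1.08 to 1.87 beside Timp4. Against WT they ran from 1.68 to 2.16 beside Timp3 and 2.13 to 2.93 beside Timp4 in AromhumH, and from 0.80 to 1.38 beside Timp4 in AromhumL.

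Replicate numbers were not used as pairs: deviations of same-numbered arrays correlated at -0.25 to 0.39, against -0.25 to 0.30 for other numbers, and 2 of 12 arrays correlated best with their own number. With the replicate block, 108 genes passed in AromhumH against WT, beside 125 without it, and 466 in AromhumH against AromhumL, beside 638.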
